A study of Homo sapiens with 18 samples.

Results

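Ribosome biogenesis genes encode the proteins that transcribe, modify, cut and fold pre-ribosomal RNA and pack it into ribosomal subunits. 60 such genes were taken by symbol from a read count table of 25369 genes. All 60 were present, all 60 were among the 14850 genes with enough reads to be tested, and the lowest raw count of any of them in any library was 714. By what their proteins are known to do, 7 belong to RNA polymerase I transcription, 8 to small nucleolar ribonucleoproteins (snoRNPs), 25 to small subunit processing, 16 to large subunit processing and 4 are abundant or multifunctional nucleolar proteins.

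RNA polymerase I copies the ribosomal DNA into a long precursor in the nucleolus. While it is still being made, snoRNPs guide chemical marks onto it and the small subunit processome folds and cuts it, and a separate set of factors builds the large subunit before both are exported. In MYC-driven tumours such as Group 3 medulloblastoma, a childhood tumour of the cerebellum, many of these genes are known targets of MYC.

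PolyA RNA of the medulloblastoma cell lines D458 and D425 was sequenced after transduction with a short hairpin RNA against EYA2 or a non-targeting one. EYA2 encodes a transcriptional coactivator and phosphatase. The 6 groups of 3 libraries were D458 with EYA2 hairpin 8, D458 with EYA2 hairpin 7 and D458 with the non-targeting control, then D425 with EYA2 hairpin 8, D425 with EYA2 hairpin 6 and D425 with the non-targeting control. Every group, controls included, carried a zsGreen hairpin construct, was kept in 1 µg/mL puromycin for 48 h, was sorted for the brightest 10% of cells and recovered for 24 h before RNA was taken. No parental or rescued cells were analysed here, hairpin 8 is the 1 hairpin used in both lines, and nothing in the labels says whether replicates came from separate transductions, so p-values measure the spread between these libraries, which may be technical. Replicate 1 of each group carries an earlier date in its label than replicates 2 and 3, which share a date, and libraries of a line with the same replicate number share a date and a further number that the labels do not explain.

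Levels are CPM, the count of a gene's reads scaled to a common library size after trimmed mean of M values (TMM) normalization. Changes are log2 fold changes with their standard error (SE) from an edgeR quasi-likelihood fit over all 18 libraries, and a gene is called higher or lower where its p, adjusted over the whole table by the Benjamini-Hochberg method, is under 0.05. EYA2 stood at 18.2, 23.5 and 19.3 CPM with hairpin 8 and 47.5, 51.9 and 45.1 CPM with hairpin 7, against 73.7, 67.5 and 69.8 CPM in D458 controls. In D425 it stood at 17.5, 12.04 and 12.7 CPM with hairpin 8 and 15.1, 10.7 and 9.72 CPM with hairpin 6, against 43.6, 24.6 and 15.5 CPM in controls. Groups did not overlap in D458, whereas in D425 the lowest control lay below the highest hairpin 8 library. The hairpin 7 difference in D458 was not called (adjusted p = 0.137), and with the replicate number as a block its adjusted p was 0.00692. Library totals ran from 21260369 to 31552051 counts. Of 8 Group 3 medulloblastoma markers, 7 averaged at least 1 CPM in every group, NPR3 was at 0 in D458 controls, and 5 leukocyte markers summed to at most 2.16 CPM in any library. Summed levels of the 8 Group 3 markers, MYC and EYA2 among them, were 5293 to 6214 CPM with hairpin 8 in D458. They were 5512 to 6232 CPM with hairpin 7, against 5976 to 6529 CPM in D458 controls. In D425 they were 4629 to 5152 CPM with hairpin 8 and 4721 to 5200 CPM with hairpin 6. D425 controls had 5584 to 6226 CPM, without overlap. Summed levels of 6 fibroblast markers were 31.4 to 61.2 CPM with hairpin 8 and 32.9 to 54.5 CPM with hairpin 7, against 6.55 to 7.94 CPM in D458 controls, where COL3A1 was at 0. They were 52.2 to 101.7 CPM with hairpin 8 and 43.0 to 88.8 CPM with hairpin 6, against 18.5 to 33.2 CPM in D425 controls. Summed levels of 5 Group 4 medulloblastoma markers were 8.33 to 19.1 CPM with hairpin 8 and 7.27 to 17.5 CPM with hairpin 7, against 3.72 to 4.34 CPM in D458 controls, with KCNA1 at 0 in all 3 groups and EOMES at 0 with hairpin 7 and in controls. Those of 5 SHH markers were 86.4 to 138 CPM with hairpin 8 and 89.4 to 139 CPM with hairpin 7, against 48.1 to 90.5 CPM in D458 controls, and those of 5 WNT markers were 27.0 to 33.8 CPM with hairpin 8 and 28.7 to 35.2 CPM with hairpin 7, against 37.9 to 41.8 CPM in D458 controls. Each of these sums was mostly 1 gene. Means in the same order of groups were 11.9, 12.6 and 3.72 CPM for RBM24 (Group 4). They were 99.1, 110.6 and 58.5 CPM for PDLIM3 (SHH), and 27.1, 28.4 and 35.9 CPM for LEF1 (WNT). GLI1, of the SHH list, averaged 4.83, 4.61 and 4.47 CPM. In D425 the Group 4 sums were 13.3 to 20.6 CPM with hairpin 8 and 12.5 to 18.3 CPM with hairpin 6, against 9.10 to 15.9 CPM in controls, and the SHH sums were 32.6 to 40.8 CPM with hairpin 8 and 29.6 to 35.2 CPM with hairpin 6, against 21.1 to 24.7 CPM in controls. There UNC5D (Group 4) averaged 14.0, 13.5 and 11.1 CPM in that order, and PDLIM3 29.3, 26.0 and 17.3 CPM. The part of these differences in the results below was not tested.

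In D458, most ribosome biogenesis genes were lower with either EYA2 hairpin than with the non-targeting control. With hairpin 8, 34 of the 60 were called lower and 0 higher, where 11.1% of all genes tested were called lower and 12.1% higher. The median log2 change of the 60 was -0.29 beside 0.01 for all genes, and single genes ran from -0.87 (UTP20) to -0.02 (NPM1), with all 60 below 0. With hairpin 7, 34 were called lower and 0 higher, where 11.1% of genes were called lower and 11.5% higher, at a median of -0.30 and with 58 of 60 below 0. With the replicate number as a block, 44 were lower and 0 higher with each hairpin. The block called 2931 of all 14850 genes lower with hairpin 8, and 19.99% lower and 19.99% higher with hairpin 7. The same 3 control libraries enter both comparisons. The medians of the 60 genes were close with both hairpins, while EYA2 averaged 20.3 CPM with hairpin 8 and 48.1 CPM with hairpin 7. It averaged 70.3 CPM in D458 controls. The part of the EYA2 level in these changes was not tested. In bulk RNA, fewer cells that express a gene and less of its RNA per cell cannot be told apart. By level, 44 genes (73.3% of the 60) had all 3 hairpin 8 libraries below all 3 controls, beside 20.7% of all genes. For hairpin 7 there were 46 (76.7%), beside 21.5% of all genes.

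Single libraries moved the size of these counts. Set against the control of the same replicate number, the median of the 60 genes was -0.52, -0.19 and -0.19 for replicates 1, 2 and 3 of hairpin 8, and -0.48, -0.20 and -0.19 for hairpin 7, while that of all genes lay within 0.02 of 0. Replicate 1 of either hairpin was the lowest, and replicate 1 of the control the highest of its group. Without hairpin 8 replicate 1, 15 genes were called, without control replicate 1 there were 18 and without control replicate 3 there were 22. Over all genes, calls in either direction numbered 1458 of 15111, 2244 of 15174 and 1976 of 15170 in that order. With every library they numbered 3442 of 14850. For hairpin 7 the counts were 11 without hairpin 7 replicate 1, 15 without control replicate 1 and 20 without control replicate 3. Calls over all genes were then 1283 of 15119, 2287 of 15174 and 1916 of 15170, against 3357 of 14850 with every library. Replicates 2 and 3 alone, which share a label date, gave 15 lower genes for each hairpin, with 0 higher. Of all 14780 genes tested in these replicates, 2235 were called with hairpin 8 and 2754 with hairpin 7. Calls that held with any single library left out numbered 15 for hairpin 8, among them UBTF, UTP20, UTP6, UTP18, RRP12, WDR46, NIP7, PES1 and MYBBP1A, and 11 for hairpin 7, among them UTP20, UTP6, UTP18, WDR46, NIP7, PES1 and RRS1.

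**Figure D1:**
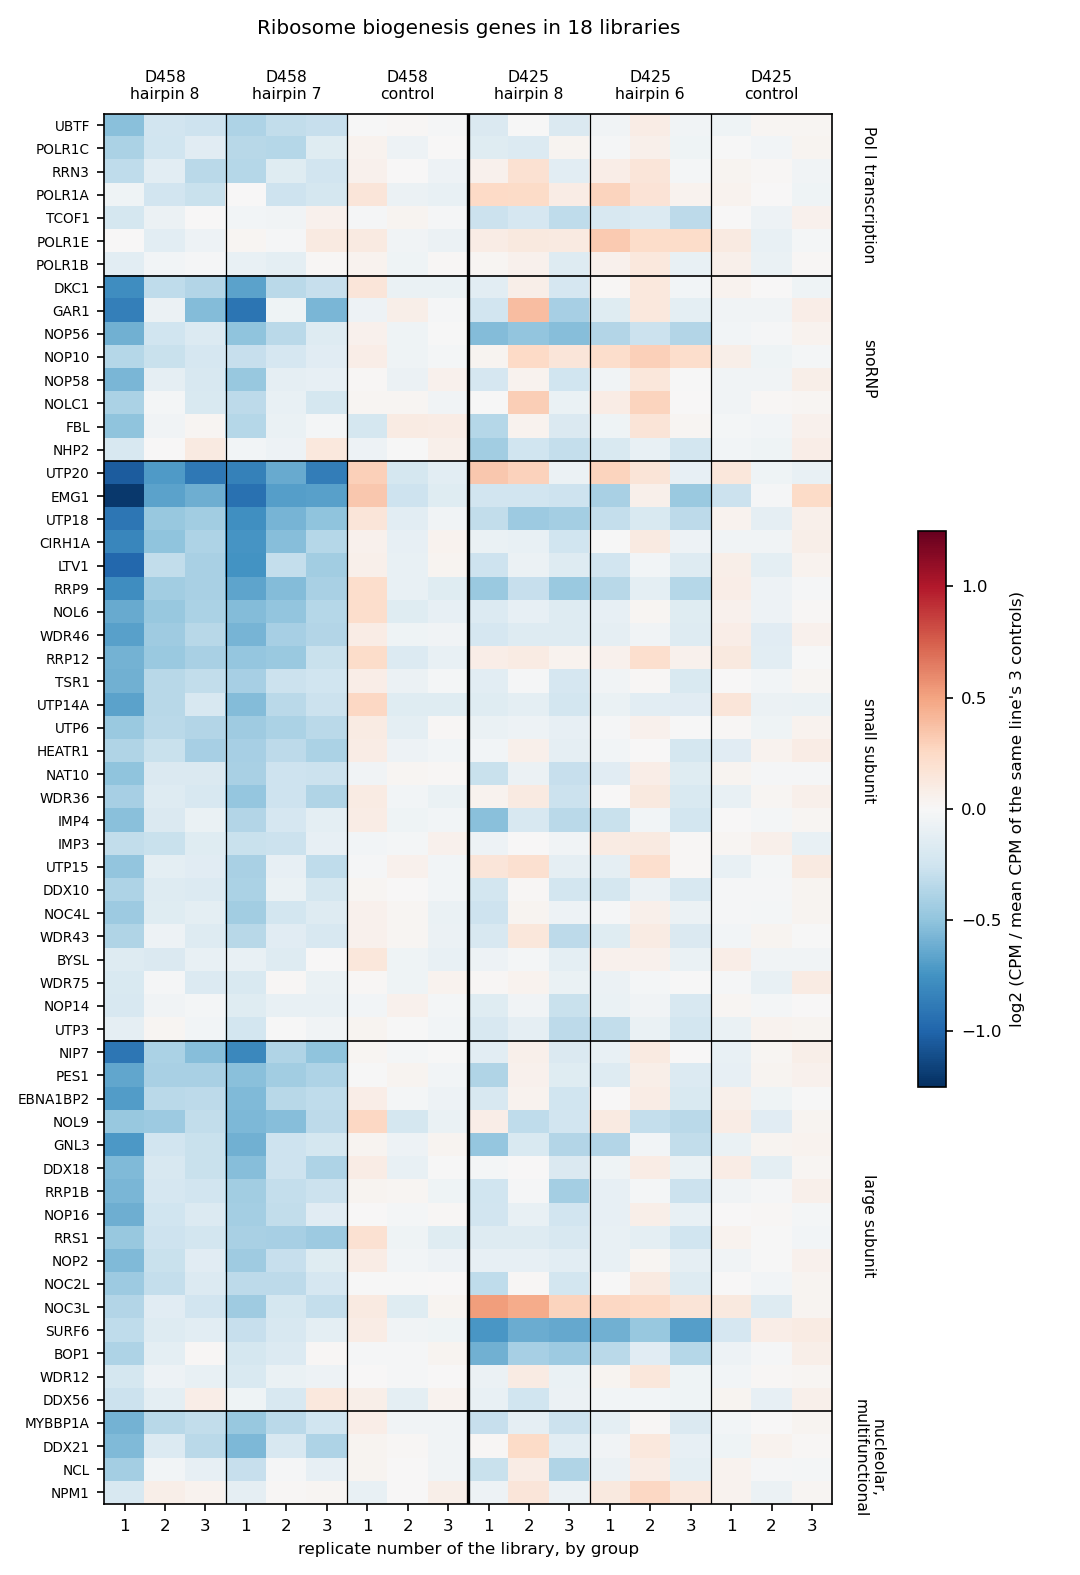
Colour gives the log2 ratio of a gene's TMM-scaled CPM in 1 library to the mean of the 3 control libraries of the same line, for 60 genes (rows, by role) and 18 libraries (columns, by group and replicate). The 6 D458 hairpin columns are mostly blue, deepest in replicate 1, while the D425 hairpin columns mix both colours and show SURF6 and NOP56 blue and NOC3L red.

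Summed over the 60 genes, the level was 13707, 16735 and 16615 CPM with hairpin 8 and 14677, 16409 and 16569.5 CPM with hairpin 7, against 18786, 18221 and 18289 CPM in D458 controls, and no hairpin library reached the lowest control. In D425 the sums were 13556, 15511 and 13255 CPM with hairpin 8 and 14821, 16250.1 and 14336 CPM with hairpin 6, against 15524, 15236 and 15775 CPM in controls, and the groups overlapped.

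In D425, calls were fewer and went in both directions. With hairpin 8, 8 of 60 were called lower and 1 higher, where 10.1% of genes tested were called lower and 11.6% higher, so the share of 13.3% lower was near that background. The median was -0.13 beside 0.02 for all genes, and 49 of 60 lay below 0. The called genes were SURF6, NOP56, BOP1, RRP9, UTP18, IMP4, NHP2 and TCOF1 on the lower side and NOC3L on the higher. With hairpin 6, 3 were called lower (SURF6, NOP56 and TCOF1) and 2 higher (POLR1E and NOP10), where 6.84% of genes were called lower and 7.31% higher, and the median was -0.04. With the replicate number as a block, 14 were lower and 2 higher with hairpin 8, where 17.7% of genes were called lower and 19.5% higher, and 5 were lower and 3 higher with hairpin 6, where 13.3% and 14.5% of genes were called. All 3 libraries lay below all 3 controls for 21 genes with hairpin 8 (35.0% of the 60), beside 17.4% of all genes. With hairpin 6 this held for 11 genes (18.3%), beside 17.2% of all genes. EYA2 averaged 14.1 CPM with hairpin 8 and 11.9 CPM with hairpin 6, against 27.9 CPM in D425 controls.

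Replicate 2 differed from the other two in D425. Against the control of the same number, the median of the 60 genes was -0.16, 0.02 and -0.21 for replicates 1, 2 and 3 of hairpin 8 and -0.05, 0.09 and -0.14 for hairpin 6. Without hairpin 8 replicate 2, 16 genes were called with hairpin 8, and without control replicate 3 there were 4. Calls over all genes were then 3105 of 15171 and 1584 of 15152, against 3221 of 14850 with every library. For hairpin 6 the count was 1 without hairpin 6 replicate 1, without hairpin 6 replicate 3 or without control replicate 3, and 2 without control replicate 2. Over all genes, calls in that order numbered 1272 of 15119, 1266 of 15150, 926 of 15152 and 1196 of 15154. With every library they numbered 2101 of 14850. With any single library left out, BOP1, NOC3L, NOP56 and SURF6 stayed called with hairpin 8, and SURF6 with hairpin 6.

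**Figure D2:**
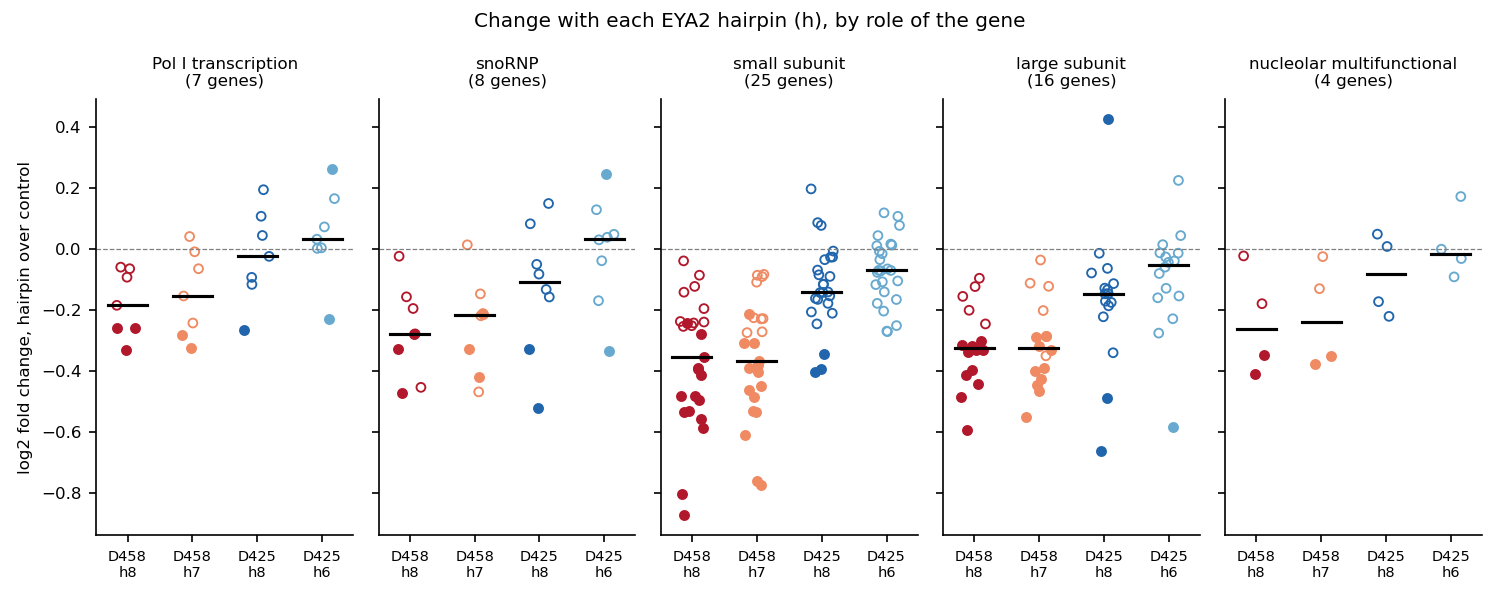
Each point is the log2 fold change of 1 gene, hairpin over the control of its line, in 5 panels by role; filled points are called at an adjusted p under 0.05, open ones are not, and bars are medians. Medians of the 25 small subunit genes were -0.35 and -0.37 with the D458 hairpins 8 and 7, and -0.14 and -0.07 with the D425 hairpins 8 and 6.

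Upstream sequence was set beside these changes for the 51 of 60 genes with an entry in the RefSeq promoter table of GRCh38.p14, over the 250 bases before the annotated start. The E-box CACGTG, which reads the same on both strands and is bound by MYC with its partner MAX and by other factors, was present in 9 of 51 (17.6%), against 952 of 10629 promoters of genes tested (8.96%). Of the 30 matched genes called lower with D458 hairpin 8, 7 held it (23.3%), as did 2 of the 21 matched genes not called (9.52%). CCGGAAGT or its reverse complement ACTTCCGG, a core bound by ETS family factors, was in 10 of 51 (19.6%), against 717 of 10629 (6.75%), with 7 of the 30 called lower (23.3%) and 3 of the 21 not called (14.3%). Neither motif contains the other. These are matches of letters and not measured binding.

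Promoters of 7 genes that carry results are printed 5′ to 3′ on the strand of the gene. UTP20 and CIRH1A were called lower with both D458 hairpins, UTP18, RRP9 and NOP56 lower with hairpin 8 in both lines, and NOP10 and NOC3L were called in opposite directions in the lines. CACGTG is in 4 of these 7 windows. The 7 were picked after values were seen, so this share cannot be set against that of the 51. Capitals mark CACGTG and ACTTCCGG. The first base of CACGTG lies 10 bases before the start in UTP20, 16 in CIRH1A, 89 in UTP18, and 170 and 11 in NOP10, while RRP9 and NOP56 hold neither motif and NOC3L holds no CACGTG in this window.
UTP20, chr12:101279855-101280104, plus strand: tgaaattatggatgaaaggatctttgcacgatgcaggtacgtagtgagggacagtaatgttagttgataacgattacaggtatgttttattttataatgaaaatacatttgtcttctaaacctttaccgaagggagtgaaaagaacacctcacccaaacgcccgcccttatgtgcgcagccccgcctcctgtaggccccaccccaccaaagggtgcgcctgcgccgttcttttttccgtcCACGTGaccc
CIRH1A, chr16:69132399-69132648, plus strand: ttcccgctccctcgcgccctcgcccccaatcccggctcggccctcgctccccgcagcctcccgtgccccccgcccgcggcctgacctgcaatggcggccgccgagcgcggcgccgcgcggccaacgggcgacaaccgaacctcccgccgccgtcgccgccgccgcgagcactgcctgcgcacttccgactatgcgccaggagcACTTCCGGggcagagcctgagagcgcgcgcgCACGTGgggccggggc
UTP18, chr17:51260296-51260545, plus strand: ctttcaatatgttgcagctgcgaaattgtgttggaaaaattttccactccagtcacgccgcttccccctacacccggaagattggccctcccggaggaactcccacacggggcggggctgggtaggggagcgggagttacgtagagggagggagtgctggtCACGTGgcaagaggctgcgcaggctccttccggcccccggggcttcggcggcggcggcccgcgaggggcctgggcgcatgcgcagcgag
NOP10, chr15:34343137-34343386, minus strand: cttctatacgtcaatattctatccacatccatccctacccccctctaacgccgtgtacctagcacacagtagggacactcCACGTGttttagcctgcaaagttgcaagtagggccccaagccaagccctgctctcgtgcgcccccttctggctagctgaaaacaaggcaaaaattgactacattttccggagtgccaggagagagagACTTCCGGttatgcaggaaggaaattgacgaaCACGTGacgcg
RRP9, chr3:51941905-51942154, minus strand: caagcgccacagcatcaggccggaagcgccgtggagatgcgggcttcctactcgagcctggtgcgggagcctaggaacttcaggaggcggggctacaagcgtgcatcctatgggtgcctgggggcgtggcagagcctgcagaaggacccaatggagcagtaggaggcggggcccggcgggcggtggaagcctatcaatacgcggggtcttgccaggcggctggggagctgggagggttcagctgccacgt
NOP56, chr20:2652382-2652631, plus strand: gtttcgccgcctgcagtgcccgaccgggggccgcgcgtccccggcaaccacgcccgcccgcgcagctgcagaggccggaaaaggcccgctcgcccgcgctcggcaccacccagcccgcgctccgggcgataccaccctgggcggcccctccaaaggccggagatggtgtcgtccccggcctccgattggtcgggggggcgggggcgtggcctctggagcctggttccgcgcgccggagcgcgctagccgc
NOC3L, chr10:94362940-94363189, minus strand: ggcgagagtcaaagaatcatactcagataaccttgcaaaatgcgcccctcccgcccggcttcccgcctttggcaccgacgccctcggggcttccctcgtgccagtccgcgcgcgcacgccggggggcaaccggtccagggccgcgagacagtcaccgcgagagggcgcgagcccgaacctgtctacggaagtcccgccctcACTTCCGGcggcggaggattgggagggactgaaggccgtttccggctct

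RNA polymerase I transcription held 3 of 7 genes called lower with D458 hairpin 8 and 2 with hairpin 7. UBTF, which binds active ribosomal DNA and recruits the polymerase I machinery, stood at 287, 350.4 and 345 CPM with hairpin 8 and 315, 333 and 338 CPM with hairpin 7, against 411, 417 and 409 CPM in controls. All 6 knockdown libraries lay below the controls, and the log2 changes were -0.33 ± 0.08 (SE; adjusted p = 0.00694) and -0.33 ± 0.08 (adjusted p = 0.00784), the second not called without hairpin 7 replicate 1 (adjusted p = 0.0526). POLR1C, a subunit shared by polymerases I and III, stood at 55.2, 60.8 and 65.5 CPM with hairpin 8 and 56.9, 56.6 and 65.3 CPM with hairpin 7, against 74.9, 69.5 and 72.9 CPM in D458 controls. Its groups did not overlap and its changes of -0.26 ± 0.08 and -0.28 ± 0.08 were called (adjusted p = 0.0314 and 0.0225), but 5 of 6 single-library omissions for hairpin 8 and 4 of 6 for hairpin 7 ended the call, at adjusted p up to 0.184 and 0.114, both without replicate 1 of the hairpin. POLR1C shares its locus with XPO5, and RRN3, the initiation factor that recruits polymerase I (-0.26 ± 0.09, adjusted p = 0.0452 with hairpin 8, lost in 5 of 6 omissions at up to 0.193), has near-identical copies and shares its locus with PDXDC1, so reads could be split or shared.

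TCOF1, the nucleolar scaffold treacle, was called lower in D425 and was not called in D458. It stood at 482, 534 and 565 CPM with hairpin 8 and 549, 544 and 582 CPM with hairpin 7, against 555, 576 and 555 CPM in D458 controls, with overlapping ranges and changes of -0.09 ± 0.07 and -0.01 ± 0.07. In D425 it stood at 414, 433 and 400.2 CPM with hairpin 8 and 435, 443 and 398 CPM with hairpin 6, against 502, 477 and 518 CPM in controls, every knockdown library below every control. Those changes of -0.26 ± 0.07 (adjusted p = 0.0113) and -0.23 ± 0.07 (adjusted p = 0.0317) were called. The first was not called without control replicate 3 (adjusted p = 0.0617), nor was the second without that library (adjusted p = 0.145), without control replicate 1 (adjusted p = 0.0569) or without hairpin 6 replicate 1 or 3 (adjusted p = 0.0658 and 0.142). The difference between lines, 0.17 ± 0.10, was not called (adjusted p = 0.259). POLR1E, a polymerase I subunit, was called higher with D425 hairpin 6 (0.26 ± 0.07, adjusted p = 0.0249, lost in 5 of 6 omissions at up to 0.118) and had log2 changes between -0.06 and 0.11 in the other 3 comparisons.

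The snoRNP genes fell into box C/D proteins, whose guides direct methylation, and box H/ACA proteins, whose guides direct pseudouridine. NOP56, a core box C/D protein, was called lower in all 4 comparisons. It stood at 319, 406 and 431 CPM with hairpin 8 and 341, 383 and 433 CPM with hairpin 7, against 502, 468 and 483 CPM in D458 controls, and at 416, 432 and 420.0 CPM with hairpin 8 and 469, 502 and 471 CPM with hairpin 6, against 594, 601 and 623 CPM in D425 controls. In neither line did a knockdown library reach a control. The log2 changes were -0.33 ± 0.10 (adjusted p = 0.0226) and -0.33 ± 0.10 (0.0231) in D458 and -0.52 ± 0.10 (0.00136) and -0.33 ± 0.10 (0.0281) in D425. Of these, only the D425 hairpin 8 call held with any single library out. The others were lost in 3 of 6 omissions for D458 hairpin 8, 5 of 6 for hairpin 7 and 4 of 6 for D425 hairpin 6, at adjusted p up to 0.134, 0.144 and 0.111. NOP56 hosts snoRNA genes in its introns. Its box C/D partners NOP58 and FBL, the methyltransferase fibrillarin, were not called in any hairpin comparison, with log2 changes from -0.28 to 0.05.

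DKC1, the pseudouridine synthase dyskerin, stood at 289, 397 and 383 CPM with hairpin 8 and 311, 393 and 406 CPM with hairpin 7, against 551, 467 and 466 CPM in D458 controls. No knockdown library reached a control, and both changes were called (-0.47 ± 0.12, adjusted p = 0.0119, and -0.42 ± 0.12, adjusted p = 0.0215). Neither was called without replicate 1 of the hairpin (adjusted p = 0.0695 and 0.134) or of the control (adjusted p = 0.058 and 0.0952). In D425 its changes were -0.08 ± 0.12 and 0.04 ± 0.12, not called. NHP2, another box H/ACA protein, stood at 191, 217 and 209 CPM with hairpin 8 and 226, 243 and 220.4 CPM with hairpin 6, against 252, 249 and 274 CPM in D425 controls. Only hairpin 8 was called (-0.33 ± 0.08, adjusted p = 0.0108; 0.0586 without hairpin 8 replicate 1 and 0.0645 without control replicate 3). In D458 its changes were -0.02 ± 0.08 and 0.01 ± 0.08. NHP2 shares its locus with RMND5B. NOLC1, the snoRNP chaperone Nopp140, stood at 483, 625 and 558 CPM with hairpin 8 and 506, 594 and 545 CPM with hairpin 7, against 645, 645 and 616 CPM in D458 controls. Replicate 2 of hairpin 8 lay within the control range, and NOLC1 was not called (-0.20 ± 0.11, adjusted p = 0.191, and -0.21 ± 0.11, 0.154), though it passed with the replicate block (adjusted p = 0.0382 and 0.0283).

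NOP10, the smallest box H/ACA core protein, was called lower with both D458 hairpins and higher with D425 hairpin 6. It stood at 124, 130.1 and 137 CPM with hairpin 8 and 129, 136 and 143 CPM with hairpin 7, against 167, 152 and 155 CPM in D458 controls. In D425 it stood at 90.2, 105 and 97.7 CPM with hairpin 8 and 103, 108 and 102 CPM with hairpin 6, against 92.7, 84.6 and 86.6 CPM in controls, where hairpin 8 replicate 1 lay within the control range. The changes were -0.28 ± 0.07 (adjusted p = 0.0126) and -0.21 ± 0.07 (0.0425) in D458 and 0.15 ± 0.07 (0.153) and 0.25 ± 0.07 (0.0317) in D425. Omitting 1 library ended the D458 hairpin 8 call for hairpin 8 replicate 1 (adjusted p = 0.0733) and control replicate 1 (0.0591), the D458 hairpin 7 call for each of the 6 libraries (up to 0.207) and the D425 hairpin 6 call for 5 of 6 (up to 0.127).

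Small subunit processing held the largest decreases in D458, those of UTP20 and EMG1. 15 of its 25 genes were called lower with D458 hairpin 8 and 16 with hairpin 7, 3 with D425 hairpin 8 and 0 with D425 hairpin 6. With D425 hairpin 6, edgeR gave 3 of the 25 at an unadjusted p under 0.05, beside 27.7% of all genes tested. UTP20, a long scaffold protein of the processome, stood at 74.8, 94.1 and 83.0 CPM with hairpin 8 and 85.7, 99.4 and 84.4 CPM with hairpin 7, against 189.6, 132 and 139.9 CPM in D458 controls. The 6 knockdown libraries lay below the lowest control, and the changes were -0.87 ± 0.15 (adjusted p = 0.000921) and -0.78 ± 0.15 (adjusted p = 0.00211). In D425 it stood at 152, 148 and 115 CPM with hairpin 8 and 146, 135 and 112 CPM with hairpin 6, against 133, 116 and 113 CPM in controls. Those groups overlapped, and neither 0.20 ± 0.14 (adjusted p = 0.354) nor 0.12 ± 0.14 (0.647) was called.

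UTP6, a protein of the UTP-B module that binds the precursor early, stood at 71.7, 78.1 and 76.5 CPM with hairpin 8 and 72.6, 74.9 and 78.3 CPM with hairpin 7, against 106, 90.9 and 99.4 CPM in D458 controls. All 6 knockdown libraries lay below every control, and UTP6 changed by -0.39 ± 0.07 (adjusted p = 0.00113) and by -0.39 ± 0.07 (0.00109). WDR46, a repeat protein of the processome, stood at 146, 172 and 185 CPM with hairpin 8 and 157, 175 and 183 CPM with hairpin 7, against 249, 226 and 228 CPM in D458 controls. It changed by -0.48 ± 0.09 (adjusted p = 0.00163) and by -0.45 ± 0.09 (0.00264), and it shares its locus with PFDN6. RRP12, known in yeast for export of pre-ribosomes, stood at 143, 155 and 162 CPM with hairpin 8 and 153, 156 and 177 CPM with hairpin 7, against 251, 191 and 201 CPM in D458 controls. No knockdown library reached a control, and the changes were -0.48 ± 0.10 (adjusted p = 0.0033) and -0.40 ± 0.10 (adjusted p = 0.00926), the second not called without hairpin 7 replicate 1 (adjusted p = 0.057) or control replicate 1 (0.0551).

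The D425 changes of these 3 genes were small: -0.08 ± 0.07 and 0.01 ± 0.07 for UTP6, -0.18 ± 0.09 and -0.10 ± 0.09 for WDR46 and 0.08 ± 0.10 and 0.11 ± 0.10 for RRP12 with hairpins 8 and 6, none called. NAT10, which acetylates the small subunit RNA, stood at 165, 207 and 207 CPM with hairpin 8 and 177, 196 and 195 CPM with hairpin 7, against 228, 239 and 237 CPM in D458 controls. It was called with both (-0.28 ± 0.09, adjusted p = 0.0359, and -0.31 ± 0.09, adjusted p = 0.0238), without overlap, but 4 of 6 omissions for hairpin 8 and 3 of 6 for hairpin 7 ended the call, at adjusted p up to 0.234 and 0.131 without replicate 1 of the hairpin. BYSL and NOP14, needed for small subunit maturation, were not called in any of the 4 comparisons, with log2 changes of -0.15 to 0.01. Named after their values were seen, EMG1, a methyltransferase of the small subunit RNA, changed by -0.80 ± 0.19 (adjusted p = 0.00694) and -0.76 ± 0.19 (0.00937) with D458 hairpins 8 and 7, UTP18, another UTP-B protein, by -0.59 ± 0.11 (0.00214) and -0.61 ± 0.11 (0.00179), and CIRH1A, of the UTP-A module, by -0.56 ± 0.11 (0.00249) and -0.53 ± 0.11 (0.00348). EMG1 with hairpin 7 was not called without hairpin 7 replicate 1 (adjusted p = 0.0567) or control replicate 1 (adjusted p = 0.0515). EMG1 stood at 30.6, 44.4 and 46.3 CPM with hairpin 8 and 37.0, 43.7 and 44.0 CPM with hairpin 7, against 89.3, 58.9 and 63.3 CPM in D458 controls. Against the control of the same number, its log2 ratios were -1.55, -0.41 and -0.45 with hairpin 8 and -1.27, -0.43 and -0.52 with hairpin 7, the first of each being replicate 1. EMG1 shares its locus with LPCAT3 and UTP18 with MBTD1.

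**Figure D3:**
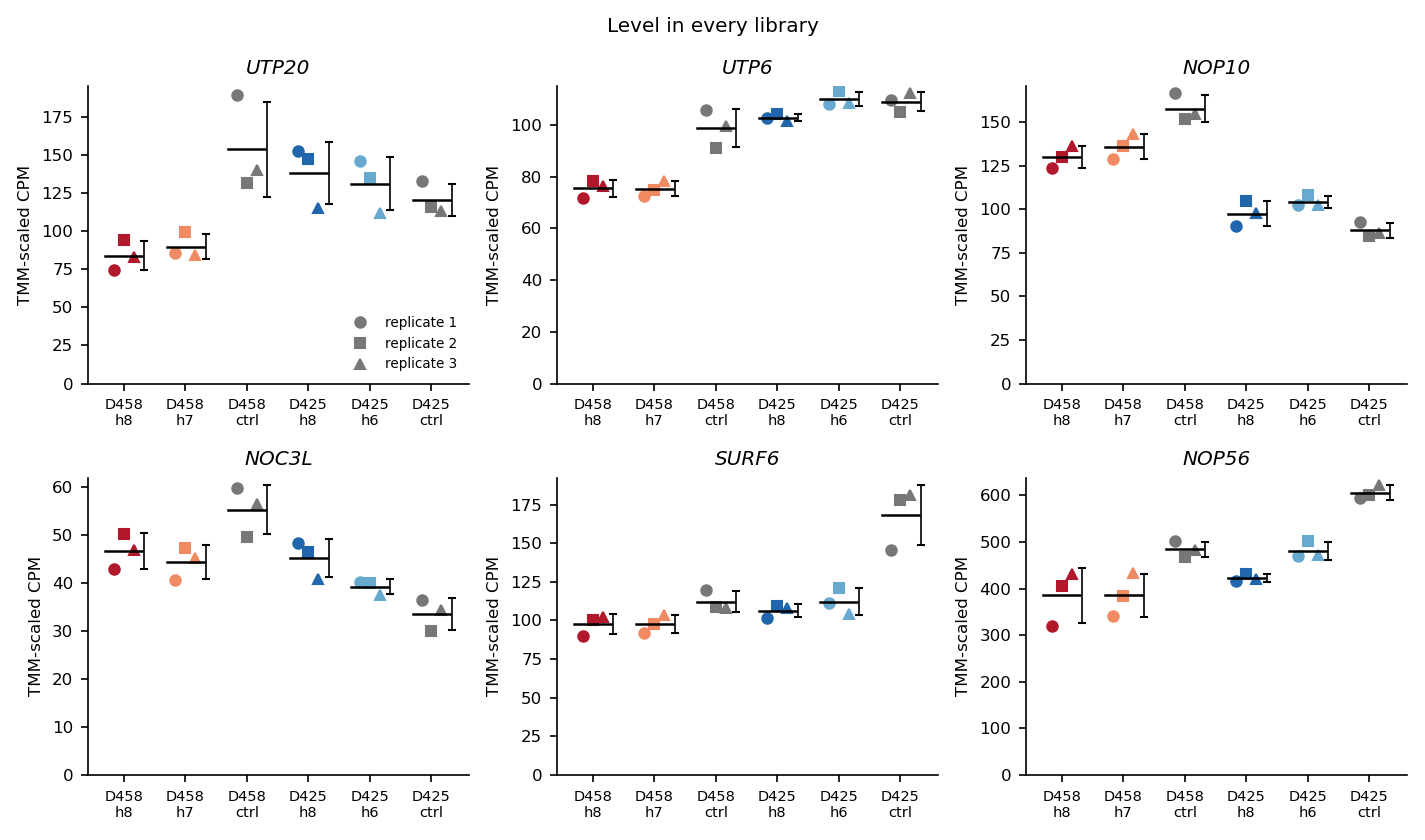
TMM-scaled CPM of 6 genes in every library, by group (h, hairpin; ctrl, control); symbols give the replicate number, bars the mean and error bars the SD of 3 libraries. UTP20, UTP6 and NOP10 lie below the controls in D458, NOC3L lies above the controls in D425, SURF6 is much lower in the D425 knockdown groups, and NOP56 is below its controls in both lines.

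Large subunit processing held 11 of 16 genes called lower with each D458 hairpin. Among them RRS1, which helps build the complex around the small ribosomal RNA of the large subunit, stood at 83.4, 97.2 and 99.3 CPM with hairpin 8 and 87.7, 86.8 and 85.0 CPM with hairpin 7, against 132, 112 and 104 CPM in D458 controls. The groups did not overlap, and the changes were -0.32 ± 0.09 (adjusted p = 0.0152; 0.11 without hairpin 8 replicate 1 and 0.098 without control replicate 1) and -0.43 ± 0.09 (adjusted p = 0.00316). NOP2, a methyltransferase of the large subunit RNA, stood at 207, 251 and 277 CPM with hairpin 8 and 225, 249 and 275 CPM with hairpin 7, against 326, 297 and 292 CPM in D458 controls. Its highest knockdown libraries lay just under the lowest control, and its calls (-0.32 ± 0.09, adjusted p = 0.0244, and -0.29 ± 0.09, adjusted p = 0.0372) were lost in 3 and 5 of 6 omissions, at adjusted p up to 0.153 and 0.202 without replicate 1 of the hairpin. NIP7, a large subunit assembly factor, and PES1, described next, both named after their values were seen, changed by -0.60 ± 0.12 (adjusted p = 0.0034) and -0.48 ± 0.10 (0.00365) with hairpin 8 and by -0.55 ± 0.12 (0.00553) and -0.45 ± 0.10 (0.00598) with hairpin 7.

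PES1, BOP1 and WDR12 form the PeBoW complex, which is needed for large subunit RNA processing, and of the 3 only PES1 was called in D458. BOP1 stood at 389, 468 and 516 CPM with hairpin 8 and 438, 451 and 515 CPM with hairpin 7, against 503, 503 and 523 CPM in D458 controls, not called (-0.16 ± 0.10, adjusted p = 0.248, and -0.12 ± 0.10, 0.366). In D425 it stood at 505, 572 and 559.6 CPM with hairpin 8 and 605, 693 and 598 CPM with hairpin 6, against 732, 756 and 806 CPM in controls. Every knockdown library there was below every control, with -0.49 ± 0.10 (adjusted p = 0.00208) called and -0.28 ± 0.10 (adjusted p = 0.0634) not called, though it passed with the replicate block (adjusted p = 0.00639) and in 5 of 15 other settings in all. WDR12 was not called in any of the 4, with changes of -0.12 ± 0.07, -0.11 ± 0.07, -0.01 ± 0.07 and 0.04 ± 0.07 in the order D458 hairpin 8, D458 hairpin 7, D425 hairpin 8 and D425 hairpin 6. DDX56, a helicase of large subunit assembly, had changes of -0.10 ± 0.10, -0.04 ± 0.10, -0.13 ± 0.10 and -0.04 ± 0.10 in that order, none called.

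SURF6, a nucleolar protein of large subunit assembly, had the largest decrease of the 60 genes in D425. It stood at 101, 109 and 108 CPM with hairpin 8 and 111, 121 and 104 CPM with hairpin 6, against 146, 178 and 181 CPM in controls, with no overlap. The changes were -0.66 ± 0.09 (adjusted p = 0.000152) with hairpin 8 and -0.58 ± 0.09 (adjusted p = 0.000644) with hairpin 6. SURF6 in D458 stood at 90.0, 100.5 and 102 CPM with hairpin 8 and 91.7, 97.5 and 103 CPM with hairpin 7, against 119.9, 109 and 108 CPM in D458 controls, below the controls but not called (-0.20 ± 0.09, adjusted p = 0.115, and -0.20 ± 0.09, 0.112). NOC3L, which escorts the pre-large subunit out of the nucleolus in yeast, stood at 48.4, 46.5 and 40.8 CPM with hairpin 8 and 40.4, 40.1 and 37.5 CPM with hairpin 6, against 36.5, 30.0 and 34.4 CPM in D425 controls. All 6 knockdown libraries lay above the controls, and hairpin 8 was called higher (0.43 ± 0.10, adjusted p = 0.00636) while hairpin 6 was not (0.23 ± 0.10, adjusted p = 0.151). In D458 it stood at 42.9, 50.3 and 46.9 CPM with hairpin 8 and 40.7, 47.4 and 45.2 CPM with hairpin 7, against 59.9, 49.8 and 56.5 CPM in D458 controls. Replicate 2 of hairpin 8 overlapped the controls, with hairpin 7 called lower (-0.32 ± 0.10, adjusted p = 0.0311) and hairpin 8 called in 1 of 15 other settings, the block (-0.25 ± 0.10, adjusted p = 0.0818, or 0.0427 with the block). The hairpin 7 call was lost in 4 of 6 omissions, at adjusted p up to 0.17, and NOC3L shares its locus with PLCE1.

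Among the 4 multifunctional nucleolar genes, MYBBP1A and DDX21 were called lower with both D458 hairpins and NCL and NPM1 with neither. MYBBP1A, which binds polymerase I and processing factors, stood at 168, 198 and 204 CPM with hairpin 8 and 182, 199 and 212 CPM with hairpin 7, against 268, 244 and 244 CPM in controls. Its groups were apart, at -0.41 ± 0.09 (adjusted p = 0.00371) and -0.35 ± 0.09 (adjusted p = 0.00916; 0.0652 without hairpin 7 replicate 1). DDX21, a helicase on nascent ribosomal RNA, stood at 469.5, 613 and 547 CPM with hairpin 8 and 467, 601 and 528 CPM with hairpin 7, against 706, 698 and 668 CPM in D458 controls. It did not overlap either, at -0.35 ± 0.11 (adjusted p = 0.0311) and -0.38 ± 0.11 (adjusted p = 0.0224), but 5 of 6 omissions ended each call, at adjusted p up to 0.187 and 0.141. NPM1, the nucleolar chaperone nucleophosmin, stood at 2549.7, 3072 and 3026 CPM with hairpin 8 and 2708, 2952 and 2973 CPM with hairpin 7, against 2755, 2939.6 and 3089.6 CPM in D458 controls. Those ranges overlapped, with changes of -0.02 ± 0.08 (95% interval -0.20 to 0.15) and -0.02 ± 0.08 (95% interval -0.20 to 0.15). NPM1 has near-identical copies in the genome, whose reads the counting may have split.

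Hairpin 8 is the hairpin that both lines received, so its effect could be compared between them. The log2 change in D458 minus that in D425 was called lower for 5 of the 60 genes (8.33%) and higher for 1 (1.67%). Of all genes tested, 5.65% were called lower and 6.19% higher. Both directions together gave 10.0% of the 60, close to the 11.8% of all genes. The median difference was -0.19 beside -0.02 for all genes. The 5 were UTP20 (-1.07 ± 0.20, adjusted p = 0.00397), NOC3L (-0.67 ± 0.14, 0.00641), RRP12 (-0.56 ± 0.14, 0.0171), NOP10 (-0.43 ± 0.10, 0.0142) and UTP6 (-0.30 ± 0.09, 0.0445), and the 1 was SURF6 (0.46 ± 0.13, 0.0272). Genes next to SURF6 on chromosome 9 had a median difference of 0.56, and all tested genes of that chromosome 0.36. With the replicate block, 12 were lower and 3 higher, where 13.0% and 13.5% of all genes were called. Without D425 control replicate 2, 3 of the 60 genes were called, and 1011 of all 15154 tested, against 1758 of 14850 with every library. UTP20, NOC3L and NOP10 kept theirs with any single library out, RRP12 did not without D425 control replicate 2 (adjusted p = 0.0516), and SURF6 did not without D425 hairpin 8 replicate 1 (0.0693), control replicate 2 (0.075) or control replicate 3 (0.0797). UTP6 lost its call in 11 of 12 omissions, at adjusted p up to 0.126. Called lower with hairpin 8 in both lines were NOP56, RRP9, a protein bound to the U3 snoRNA, and UTP18, which is 8.82% of the 34 in D458 and 37.5% of the 8 in D425. Over all genes tested, 302 were called lower with hairpin 8 in both lines, which is 18.3% of those lower in D458 and 20.1% of those lower in D425. With the replicate block there were 8 of the 60 (GNL3, IMP4, MYBBP1A, NAT10, NOP56, RRP1B, RRP9 and UTP18), 18.2% of 44 and 57.1% of 14, against 28.5% and 31.8% for all genes. Without the block, single-library omissions ended the D425 call of RRP9 in 3 of 6 cases (adjusted p up to 0.0681) and of UTP18 in 3 of 6 (up to 0.0777).

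**Figure D4:**
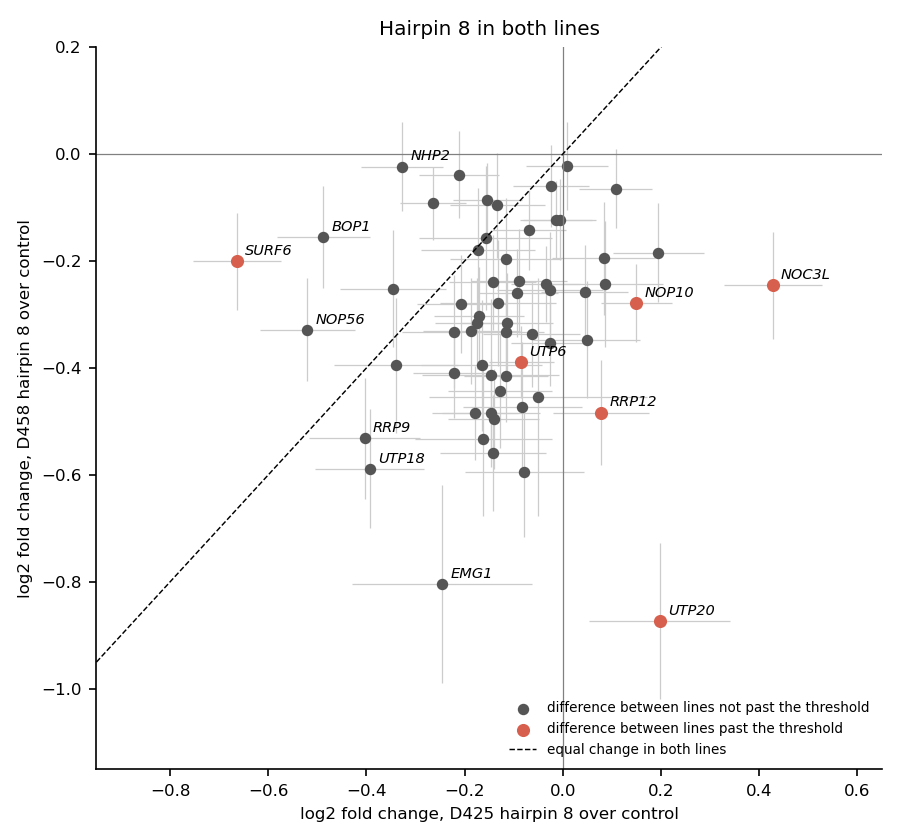
Log2 fold change with hairpin 8 over control in D458 (vertical axis) against D425 (horizontal axis) for 60 genes, with SE as grey lines; red points differ between the lines at an adjusted p under 0.05 and the dashed line marks equal change. Most genes lie between -0.6 and 0 on the D458 axis and nearer to 0 in D425, UTP20 and NOC3L lie furthest below the dashed line, and SURF6 lies above it.

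Within a line, none of the 60 genes passed the threshold between the 2 hairpins. In D458, hairpin 8 against hairpin 7 gave 0 of 60 called by edgeR, 0 at an unadjusted p under 0.05 and 0 by DESeq2. Of all 14850 genes, edgeR called 0 (0.0%), and 1.85% had an unadjusted p under 0.05. Log2 differences ran from -0.11 to 0.11, and their 95% intervals reached from -0.46 to 0.49. In D425, hairpin 8 against hairpin 6 gave 0 called by edgeR, 1 at an unadjusted p under 0.05 and 0 by DESeq2, with differences of -0.21 to 0.20 and intervals from -0.49 to 0.46. Of all genes, edgeR called 0 (0.0%) there too, and 3.49% had an unadjusted p under 0.05. The median D425 difference was -0.08 beside 0.01 for all genes, and 50 of the 60 were below 0, as were 48.1% of all genes. In D458, EYA2 itself was not called, at means of 20.3 CPM with hairpin 8 and 48.1 CPM with hairpin 7 (-1.24 ± 0.27). With the replicate block in edgeR its adjusted p was 0.011. A lack of calls between hairpins therefore does not show that they acted alike.

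Between the non-targeting controls, the lines differed at many of these genes, as at most genes. In D458 controls 27 of 60 were higher and 8 lower than in D425 controls, beside 31.4% of all genes higher and 31.4% lower, and the median log2 difference was 0.20 beside 0.01. NOP10 stood at 167, 152 and 155 CPM in D458 controls and 92.7, 84.6 and 86.6 CPM in D425 controls (0.84 ± 0.07, adjusted p = 3.74e-08). BYSL stood at 149, 129.8 and 127 CPM in D458 controls and 88.4, 81.2 and 81.3 CPM in D425 controls (0.69 ± 0.08, adjusted p = 5.78e-07). POLR1C (0.71 ± 0.08), NOP2 (0.77 ± 0.09) and NOP14 (0.57 ± 0.07) completed the 5 higher genes with the smallest adjusted p. The 5 lower ones were SURF6 (-0.58 ± 0.09), BOP1 (-0.59 ± 0.10), NAT10 (-0.42 ± 0.09), DDX56 (-0.37 ± 0.10) and NOP56 (-0.32 ± 0.10). These 10 were called with any single library out (adjusted p at most 0.00742 with all libraries). With all libraries, 31 genes (51.7% of the 60) had 3 D458 controls above 3 D425 controls, beside 35.0% of all genes. Scaling by library totals alone moved the split to 21 higher and 14 lower.

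Neighbouring genes on the chromosome were measured beside each member, as the median log2 change of up to 20 tested genes on either side in RefSeq order. With D458 hairpin 8 these medians ran from -0.20 to 0.27, 30 of 60 below 0, and all 60 members were lower than their neighbours' median, by a median of 0.35. In D425, SURF6, NOP56, BOP1, UTP18, NHP2 and RRP9, called lower with hairpin 8, had neighbours with medians below 0. Neighbours of IMP4 and TCOF1, also called lower, had medians above 0. With hairpin 8, neighbour medians were below 0 for 23 of the 60 genes. They were -0.15 around UTP18, -0.14 around NHP2 and 0.02 around IMP4. With hairpins 8 and 6, the neighbours of SURF6 on chromosome 9 had medians of -0.42 and -0.44, beside -0.66 and -0.58 for SURF6, and those of NOP56 on chromosome 20 had -0.38 and -0.33, beside -0.52 and -0.33. Neighbours of BOP1 on chromosome 8 had -0.20 with hairpin 8, beside -0.49. NAT10 on chromosome 11, not called in D425, had -0.21 beside 0.32 for its neighbours. NOC3L (0.11 around it), TCOF1 (0.23) and RRP9 (-0.08) had neighbours nearer to 0 or on the other side of it. For the hairpin 8 difference between lines, the neighbours of SURF6 had a median of 0.56, beside 0.46 for SURF6. Those of UTP20, NOC3L, RRP12, NOP10 and UTP6 had -0.16, -0.15, -0.18, -0.05 and -0.16. Between the control groups, the neighbours of 25 of 60 members differed by at least 0.3 in median, up to 0.98 around HEATR1 on chromosome 1, 0.90 around UTP14A on chromosome X and 0.77 around BYSL on chromosome 6. The part of the neighbourhood in the members' values was not tested.

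**Figure D5:**
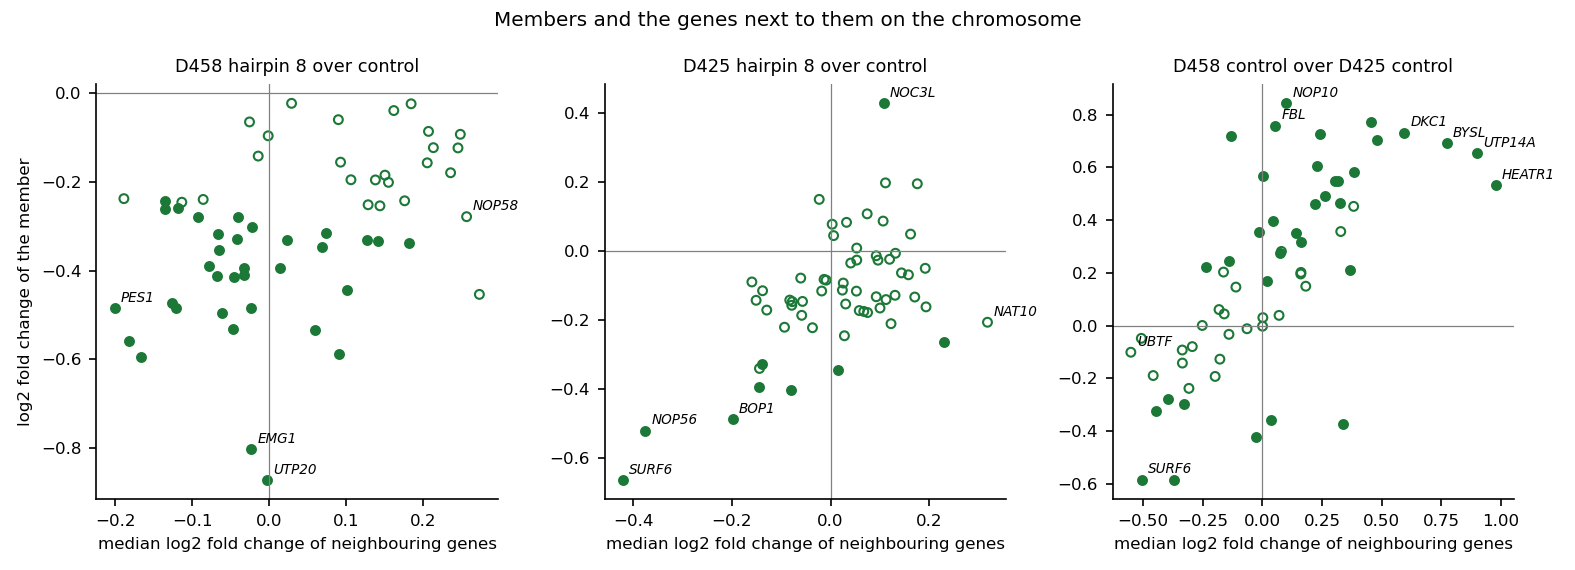
Log2 change of each of 60 genes (vertical axis) against the median log2 change of its chromosomal neighbours (horizontal axis) with D458 hairpin 8, with D425 hairpin 8 and between control groups; filled points are called. In the D458 panel all points lie below their neighbours' value, in the D425 panel SURF6, NOP56 and BOP1 sit at the lower left with theirs, and in the control panel neighbour medians spread from -0.55 to 0.98.

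A further list of ribosome biogenesis genes, of which 129 were in the table and all 129 were tested, was counted in the same way. With D458 hairpin 8, 64 of 129 were called lower and 1 higher at a median of -0.29, and with hairpin 7, 55 were lower and 2 higher at -0.27 (85 lower and 4 higher with the replicate block, where 19.99% of all genes were called lower and 19.99% higher). In D425, 20 were lower and 2 higher with hairpin 8 (median -0.10) and 14 lower and 1 higher with hairpin 6 (median -0.02). With the block, 34 were lower and 5 higher with D425 hairpin 8, and 21 lower and 7 higher with D425 hairpin 6. The other background shares are those given for the 60 genes. By role with D458 hairpin 8, 26 of 40 other small subunit genes, 20 of 45 large subunit genes, 6 of 10 RNase MRP and P proteins, 5 of 9 polymerase I genes and 4 of 16 exosome and nuclease genes were lower. RPP25, a subunit of RNase MRP and P, stood at 75.1, 79.4 and 84.4 CPM with hairpin 8 and 76.9, 73.6 and 78.9 CPM with hairpin 7, against 121, 108 and 104 CPM in D458 controls (-0.48 ± 0.07, adjusted p = 0.000458, and -0.54 ± 0.07, adjusted p = 0.000193). FCF1, a nuclease of the processome, stood at 26.6, 34.0 and 32.3 CPM with hairpin 8, against 51.3, 46.5 and 50.4 CPM in D458 controls (-0.67 ± 0.10, adjusted p = 0.000547). These groups did not overlap. DDX47, a helicase of small subunit processing, changed by -0.41 ± 0.07 with hairpin 7 (adjusted p = 0.00122).

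In D425 the lowest adjusted p of the further list belonged to NOL8, a nucleolar protein, and FTSJ3, a methyltransferase of the ribosomal RNA precursor. NOL8 stood at 61.3, 69.0 and 63.4 CPM with hairpin 8 and 60.3, 72.0 and 66.2 CPM with hairpin 6, against 101, 106 and 121 CPM in controls (-0.76 ± 0.10, adjusted p = 0.000166, and -0.72 ± 0.10, adjusted p = 0.000407). FTSJ3 stood at 202, 204 and 189 CPM with hairpin 8 and 204, 209 and 188 CPM with hairpin 6, against 279.9, 278 and 289 CPM in D425 controls (-0.51 ± 0.08, adjusted p = 0.000479, and -0.49 ± 0.08, adjusted p = 0.000901). MDN1, the large ATPase that remodels the pre-large subunit, differed between lines with hairpin 8 by -1.28 ± 0.27 (adjusted p = 0.00768): it stood at 248, 253 and 196 CPM with hairpin 8, against 416, 352 and 313 CPM in D458 controls, and at 329.6, 328 and 221 CPM with hairpin 8, against 161, 212 and 189 CPM in D425 controls. In D425 hairpin 8, replicate 3 of MDN1 lay just above the controls and the other 2 well above them. DDX24, a helicase, differed by -0.37 ± 0.08 (adjusted p = 0.0103). For this difference between lines, 18 of the 129 genes were called lower (14.0%) and 3 higher, at a median of -0.18. Of all genes tested, 5.65% were called lower and 6.19% higher. Between the control groups, where 61 of the 129 were higher and 27 lower in D458, DIEXF stood 1.23 ± 0.10 higher on the log2 scale (adjusted p = 1.15e-08) and DDX49 0.90 ± 0.08 higher (adjusted p = 3.63e-08).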

How the data were processed

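Strand-specific poly(A) RNA-seq libraries of D458 and D425 cells (18 in all, 3 a group) were analysed from the raw read counts per gene that the authors deposited. Per the submitters' processing notes, the tools were TopHat2 and Bowtie2, HTSeq, SAMtools and Picard, bcl2fastq and FastQC, with GRCh37/hg19. Tool versions and the strand setting of the counting were not given in the sources used here, so reads of overlapping genes may be shared. Of 25369 genes, 14850 passed filterByExpr of edgeR 4.0.16 (R 4.3.3; minimum count 10). A robust quasi-likelihood model with TMM scaling and 1 coefficient per group (12 residual degrees of freedom) was fitted over all libraries, p-values were adjusted by Benjamini-Hochberg over 14850 genes, and the code was tested on simulated data. Totals of 21260369 to 31552051 counts and the number of libraries limit the precision. CPM values use TMM-scaled totals.

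Genes and lists were chosen with earlier results of these data known. Genes named with their values are, in each role, the 3 with the smallest adjusted p in any hairpin comparison and the one of highest mean CPM, those whose hairpin 8 effect differed between lines, the 5 higher and 5 lower with the smallest adjusted p between controls, those called in opposite directions in the lines and, from the further list, the 2 with the smallest adjusted p per comparison. CIRH1A, EMG1, FBL, IMP4, NIP7, NOP58, PES1, POLR1E, RRN3, RRP9, UTP18 and WDR12 were chosen after their values were seen. In the labels, same-numbered libraries of a line share a date and a further number whose meaning is not explained, and they were taken as paired on that ground. Deviations of same-numbered libraries from their group means correlated at 0.347 on average in D458 (0.127 to 0.7) and 0.296 in D425 (0.0843 to 0.608), against -0.165 and -0.143 for different numbers. Deviations from a group mean sum to 0, so the negative averages largely follow from the positive ones and are no separate sign of pairing. Alternatives were that block, DESeq2 1.42.0 and its size factors, library totals, no filter, each line alone, and omission of each library or replicate number. No table column was left unused.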

Additional observations from a re-analysis of the deposited data

Results flagged for a closer look

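The effect of hairpin 8 differed between D458 and D425, by an edgeR test of the difference itself, at 6 of the 60 genes. That is 10.0% of them, beside 11.8% of all genes tested. By direction, 8.33% of the 60 were called lower and 1.67% higher, beside 5.65% and 6.19% of all genes. The log2 change in D458 minus that in D425 was -1.07 for UTP20, -0.673 for NOC3L, -0.561 for RRP12, -0.428 for NOP10, -0.304 for UTP6 and 0.463 for SURF6. Both NOC3L and NOP10 had mean levels below the control in D458 and above it in D425. UTP6, RRP12 and SURF6 lost the call when single libraries were left out, as given above. The chromosomal neighbours of SURF6 had a median difference of 0.561, above that of SURF6 itself.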

How the results depend on the processing

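The block by replicate number, which pairs libraries, raised the number of the 60 genes called from 9 to 16 for D425 hairpin 8, from 5 to 8 for D425 hairpin 6 and from 6 to 15 for the difference between lines. It also raised the count from 34 to 44 for each D458 hairpin. Over all 14850 genes, it raised calls from 3221 to 5521 for D425 hairpin 8 and from 2101 to 4134 for D425 hairpin 6. The rise was from 1758 to 3934 for the difference between lines. For D458 hairpins 8 and 7 it was from 3442 to 5888 and from 3357 to 5937. The block moved no other count of the 60 genes by over 1.5 times. It ended the calls of MYBBP1A, TCOF1 and UTP20 between the control groups. Without the filter on low counts, 3 were called for D425 hairpin 6, and with library totals alone 10 for the difference between lines. Over all genes these settings called 1772 of 21454 and 1833 of 14850. When single libraries or replicate numbers were left out, the counts ran from 14 to 32 for D458 hairpin 8, 7 to 29 for D458 hairpin 7, 2 to 16 for D425 hairpin 8, 0 to 6 for D425 hairpin 6, 0 to 8 for the difference between lines and 25 to 34 between the controls, and stayed at 0 between hairpins. Of all 15056 genes tested without replicate 2, calls numbered 818, 686, 878, 116, 75 and 7182 in that order. Of 14974 without replicate 3, they numbered 918, 663, 513, 135, 102 and 7225. DESeq2 called 34 and 35 for the D458 hairpins 8 and 7, 12 and 6 for the D425 hairpins 8 and 6, 9 for the difference and 38 between the controls. Of all 14850 genes it called 3939, 3876, 3671, 2541, 2421 and 9419 in that order. Of 62 calls of single genes, 21 were made in every setting, 32 held with any 1 library out, 41 were lost with at least 1 replicate number out, which leaves 2 libraries a group, and 0 reversed. The causes were not tested. Changes under about 0.3 on the log2 scale are close to the limit of 3 libraries a group, with a median SE of 0.097.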

Other observations

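MYC, which binds many ribosome biogenesis genes in other cells, stood at 2903, 3521 and 3753 CPM with hairpin 8 and 3208, 3335 and 3708 CPM with hairpin 7, against 3993, 4092 and 4058 CPM in D458 controls. All 6 knockdown libraries lay below the controls, and neither change was called (-0.25 ± 0.10, adjusted p = 0.0652, and -0.24 ± 0.10, adjusted p = 0.0756), while with the replicate block the adjusted p was 0.00596 and 0.00836. In D425 it stood at 2314, 2756 and 2271 CPM with hairpin 8 and 2562, 2894 and 2533 CPM with hairpin 6, against 3348, 3660.2 and 3736 CPM in controls, and both changes were called (-0.55 ± 0.10, adjusted p = 0.000939, and -0.43 ± 0.10, adjusted p = 0.00733). The part of MYC in the members' values was not tested.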
